A study of Homo sapiens with 8 samples.

Results

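Presentation of peptides by MHC class I and the checkpoint ligand PD-L1 were examined at the mRNA level in CAKI1 cells, a long-established line of human renal carcinoma. The 9 genes were HLA-B, HLA-C, HLA-E, B2M, TAP1, TAPBP, NLRC5, CD274 and CMTM6, chosen by gene symbol among the 16782 genes of the deposited table. All 9 genes were among the 15593 genes that passed the filter on low values and were tested. RNA was sequenced from 4 samples of unstimulated control cells and from 4 samples of cells treated for 24 h with 5 µg/mL hLcn-2, the iron-loaded (holo) form of lipocalin-2. All cells had been kept without serum for 24 h before stimulation, and iron-free Lcn-2 was not analysed here. The samples carry the numbers 1 to 4 in each group. All of them come from 1 cell line in culture, so that no T cells or natural killer cells were part of the samples.

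MHC class I molecules show peptides from inside a cell to CD8+ T cells. HLA-B and HLA-C are classical heavy chains, and HLA-E is a non-classical one that is mainly read by receptors of natural killer cells. Each heavy chain needs the light chain β2-microglobulin, encoded by B2M, to reach the surface. TAP1 is a subunit of the transporter that carries peptides into the endoplasmic reticulum, and TAPBP encodes tapasin, which holds that transporter close to the empty heavy chain. NLRC5 is a transactivator of class I genes. CD274 encodes PD-L1, the ligand of the inhibitory T cell receptor PD-1, and CMTM6 is a membrane protein that binds PD-L1 and protects it from degradation in lysosomes. Renal carcinoma is known for loss of class I presentation in part of the tumors and for treatment with antibodies against the PD-1 axis.

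Marker genes were read to set the cells beside their labelled origin. Of 10 renal epithelial and renal carcinoma markers, 9 were in the table, with a summed level of 1783 to 2057 normalized counts in controls and 1820 to 2164 in hLcn-2-treated cells. The highest of these 9 were MET, at 956 and 941 normalized counts on average, and CDH2, at 416 and 509. PAX8, a transcription factor of renal epithelium, averaged 226 and 223 normalized counts, whereas PAX2 averaged 2.52 and 2.97. CA9 was not in the table. Of 10 leukocyte markers, 3 were in the table, with a summed level of 3.52 to 5.82 in controls and 3.26 to 4.94 in hLcn-2-treated cells. PTPRC, which defines leukocytes, was not among them. Of 5 endothelial markers 0 and of 6 fibroblast markers 2 were in the table, the latter with 3.70 to 6.58 and 2.47 to 5.78. In a bulk sample a change per cell cannot be told apart from a change in the share of cells that carry an mRNA.

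Normalized counts are reads of a gene, scaled by the authors to a common library size. Each library holds a tag from the 3′ end of a transcript, so that a long mRNA is not counted more often than a short one and levels of different genes were compared without dividing by length. Values could be turned back into whole reads, of which the libraries held between 1501563 and 13953090. Depth therefore differed by up to 9.29 times between libraries, and 1 read was worth between 0.0704 and 0.658 normalized counts. No label names a batch, and nothing in the labels says whether the 4 samples of a group came from separate cultures, so that p-values measure the spread between these samples, which may be technical.

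The promoters of B2M, HLA-B, CD274 and CMTM6 are shown to set the best known elements of class I and PD-L1 promoters beside the gene with the largest difference. Each window runs from 250 bases before to 50 bases after a RefSeq transcription start (GRCh38.p14), 5′ to 3′ on the strand of the gene. Capitals mark matches, on either strand, to 6 motifs: the core of the interferon-stimulated response element (ISRE, GAAA and GAAA with any 2 bases between them), the gamma-activated site (GAS, TTCNNNGAA), the half-site of the cAMP response element (TGACG), the CCAAT box (CCAAT), the antioxidant response element (TGACNNNGC) and the composite site of ATF4 (TGATGNAA). The window of B2M lies at chr15:44711267-44711566 on the plus strand, that of HLA-B at chr6:31357130-31357429 on the minus strand, that of CD274 at chr9:5450292-5450591 on the plus strand and that of CMTM6 at chr3:32502803-32503102 on the minus strand.
B2M: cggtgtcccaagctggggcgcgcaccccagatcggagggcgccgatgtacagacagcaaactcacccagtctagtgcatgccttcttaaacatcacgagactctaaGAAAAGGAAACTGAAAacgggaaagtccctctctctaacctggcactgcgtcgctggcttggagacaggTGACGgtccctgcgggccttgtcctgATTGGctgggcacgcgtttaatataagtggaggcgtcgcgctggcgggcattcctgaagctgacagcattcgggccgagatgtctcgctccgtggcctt
HLA-B: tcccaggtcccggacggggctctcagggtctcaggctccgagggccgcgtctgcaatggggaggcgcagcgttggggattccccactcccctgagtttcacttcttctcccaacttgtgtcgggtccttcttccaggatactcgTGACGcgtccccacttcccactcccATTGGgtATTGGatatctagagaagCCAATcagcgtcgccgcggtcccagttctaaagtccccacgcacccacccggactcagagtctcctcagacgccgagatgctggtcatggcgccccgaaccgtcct
CD274: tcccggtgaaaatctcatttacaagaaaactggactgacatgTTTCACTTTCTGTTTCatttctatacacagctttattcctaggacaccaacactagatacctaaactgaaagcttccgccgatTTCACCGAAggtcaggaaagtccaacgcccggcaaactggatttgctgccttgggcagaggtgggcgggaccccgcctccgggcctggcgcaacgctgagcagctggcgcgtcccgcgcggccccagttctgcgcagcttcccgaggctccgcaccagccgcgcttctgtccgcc
CMTM6: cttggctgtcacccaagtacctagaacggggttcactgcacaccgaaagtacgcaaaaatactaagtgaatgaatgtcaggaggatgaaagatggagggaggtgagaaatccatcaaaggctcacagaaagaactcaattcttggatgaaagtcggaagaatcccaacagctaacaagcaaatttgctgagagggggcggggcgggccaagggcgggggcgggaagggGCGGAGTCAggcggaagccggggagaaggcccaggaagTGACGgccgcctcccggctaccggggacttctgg
The windows of B2M and CD274 both held 2 overlapping ISRE cores, at -144 and -138 from the start in B2M and, on the minus strand, at -208 and -202 in CD274. An ISRE core was found in 3.57% of all 35116 RefSeq promoter windows. CD274 also held a GAS at -125, an element found in 7.66% of windows. B2M and HLA-B shared the TGACG half-site, at -75 and -106, and at least 1 CCAAT box, elements found in 24.6% and 34.6% of windows. CMTM6 held no ISRE core, GAS or CCAAT box in its window, and its matches were an antioxidant response element on the minus strand at -22 (13.3% of windows) and a TGACG half-site at 16 bases past the start. None of the 4 windows held the ATF4 motif, which 3.62% of windows held. Windows were available for 7 of the 9 genes. TAP1 and TAPBP each held 2 ISRE cores, and HLA-C held the TGACG half-site with 4 CCAAT boxes. A match is a stretch of letters and was not tested for binding.

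After hLcn-2, CMTM6 stood at 1.84 times its control level. The class I heavy chains, the peptide-loading genes and NLRC5 had log2 fold changes between -0.13 and 0.10, and none of these 6 genes passed in a test. B2M was higher in 4 of 4 pairs, by 1.25 times on average, and CD274 was lower in 3 of 4, without passing in limma. In limma on log2(normalized count + 1) without regard to the sample numbers, 0 of the 9 genes and 0 of the 15593 genes in the test (0%) reached an adjusted p-value under 0.05, and 355 genes had an unadjusted p-value under 0.05. Samples of the same number deviated from their group means in the same direction, with correlations across genes of 0.48, 0.59, 0.61 and 0.31 for numbers 1 to 4. With the sample number as a block, which compares each hLcn-2 sample with the control of the same number, 44 genes (0.282% of those tested) passed, and CMTM6 was 1 of them. With the same block, edgeR's quasi-likelihood test on the recovered reads called 233 genes (1.49%), among them CMTM6 and B2M. Over the 9 genes, 6 log2 fold changes were above and 3 below 0, with a median of 0.045, beside a median of 0.00083 and 50.2% above 0 over all genes tested.

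**Figure D1:**
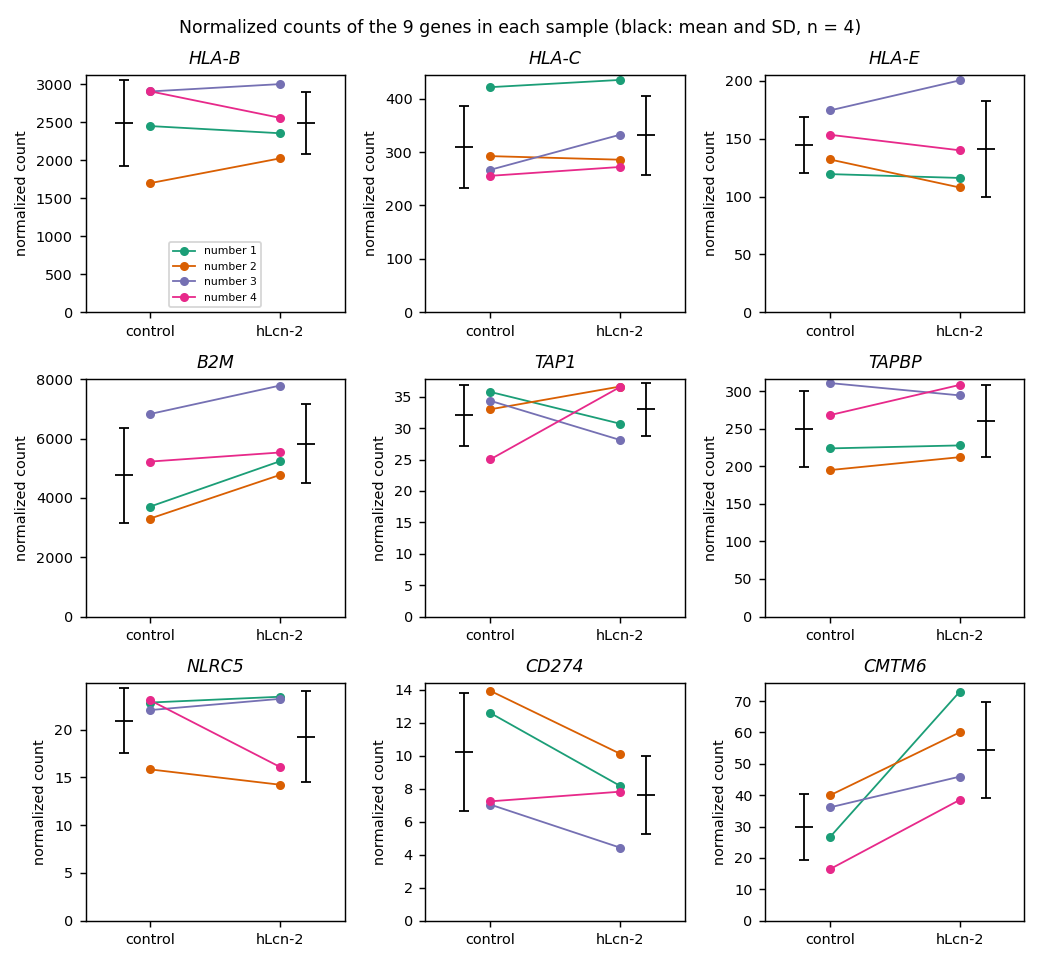
Normalized counts (vertical axes, each from 0) of the 9 genes in control and hLcn-2-treated cells, with samples of the same number joined by a line and the mean ± SD (n = 4) in black beside each group. The lines of CMTM6 and B2M go up in 4 of 4 pairs and those of CD274 go down in 3 of 4. Those of each heavy chain go up in some pairs and down in others.

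Both groups overlapped in each of the 9 genes, whereas 1.88% of the genes tested had all 4 hLcn-2 samples above or below all 4 controls. CMTM6 and B2M, 2 of the 9 genes, were higher after hLcn-2 in 4 of 4 pairs, as were 9.93% of all genes tested. The number lower in 4 of 4 pairs was 0 of 9, and 10.9% over all genes.

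HLA-B was the most abundant of the 3 heavy chains and showed no difference beyond the spread. In control cells 1 to 4 it measured 2452, 1701, 2908 and 2909 normalized counts, and in hLcn-2-treated cells 1 to 4 it measured 2358, 2026, 3004 and 2561. Sample 2 was the lowest in both groups and the groups lay on top of each other, with means of 2493 ± 570 and 2487 ± 409 (SD, n = 4). The log2 fold change was 0.015 (standard error 0.20), with a 95% confidence interval of -0.42 to 0.45 in limma without the block and of -0.17 to 0.20 with it. The sign turned to -0.017 when libraries were scaled by their column totals. In the fit with the block, the interval corresponded to 0.891 to 1.15 times the control level. Within pairs the reads of HLA-B, between 4418 and 34813 per library, gave differences of -0.057, 0.25, 0.047 and -0.18 on the log2 scale, 2 of them up and 2 down.

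HLA-C, the other classical heavy chain among the 9 genes, was far less abundant than HLA-B. It measured 421, 292, 267 and 255 normalized counts in controls and 435, 286, 332 and 272 after hLcn-2. Sample 1 was far above the others in both groups, which is another sample than the one that set HLA-B apart. The means were 309 ± 76.5 and 331 ± 73.8 (SD, n = 4), and the log2 fold change was 0.10 (standard error 0.19, interval with the block -0.064 to 0.27). HLA-C was higher in 3 of 4 pairs, and its adjusted p in limma was 0.9999 without and 0.643 with the block.

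HLA-E, the ligand of natural killer cell receptors, was lower in 3 of 4 pairs. Its normalized counts were 119, 132, 175 and 153 in controls and 116, 108, 200 and 140 after hLcn-2. Sample 3 was the highest in both groups, and the hLcn-2 values spread to both sides of the controls. The log2 fold change was -0.065 (standard error 0.20, interval with the block -0.26 to 0.13), with means of 145 ± 24.2 and 141 ± 41.8 (SD, n = 4).

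HLA genes are similar in sequence, and how reads that match several of them were counted is not given in the sources used here. Values of HLA-B, HLA-C and HLA-E may therefore hold reads of each other or of HLA pseudogenes. The sum of HLA-B, HLA-C and HLA-E lay between 2126 and 3349 normalized counts in controls and between 2420 and 3537 after hLcn-2.

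B2M, the light chain that all heavy chains share, was the most abundant of the 9 genes and was higher after hLcn-2 in every pair. Controls 1 to 4 measured 3709, 3305, 6829 and 5225 normalized counts, and hLcn-2 samples 1 to 4 measured 5234, 4773, 7786 and 5530. Samples 1 and 2 were low and sample 3 was high in both groups, so that the groups overlap although each hLcn-2 sample lay above its own control. The means were 4767 ± 1604 and 5831 ± 1340 (SD, n = 4), and the log2 fold change was 0.32, which is 1.25-fold. Its standard error was 0.25 without the block (95% confidence interval -0.21 to 0.86, limma, adjusted p = 0.9999) and 0.094 with it (0.12 to 0.53, limma, adjusted p = 0.178). B2M thus did not pass in limma, while it did by edgeR's quasi-likelihood test with the block (log2 fold change 0.33, adjusted p = 0.0349). DESeq2 with the block gave an adjusted p of 0.0528. The exact permutation test over the 70 regroupings of 4 against 4 samples gave p = 0.257, where the smallest possible value is 0.0286.

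The size of the B2M difference was not the same in the 4 pairs. The ratio of hLcn-2 to control was 1.41 in pair 1 and 1.44 in pair 2, and 1.14 in pair 3 and 1.06 in pair 4. With 7935 to 58761 reads of B2M per library, counting error was small and all 4 of the exact 95% binomial intervals lay above 1 (1.39 to 1.43, 1.42 to 1.46, 1.12 to 1.16 and 1.03 to 1.09). These intervals cover counting error only. Leaving out pair 4 brought B2M past the threshold in limma with the block (log2 fold change 0.41, adjusted p = 0.0499). Leaving out any of the other pairs did not.

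The peptide-loading genes did not pass in any test. TAP1 measured 35.8, 33.0, 34.4 and 25.02 normalized counts in controls and 30.7, 36.6, 28.1 and 36.5 after hLcn-2. Its pairs went up 2 times and down 2 times, with means of 32.0 ± 4.82 and 33.0 ± 4.26 (SD, n = 4), and the log2 fold change was 0.045 (standard error 0.17, interval with the block -0.25 to 0.34). The lowest value, that of control 4, rests on 38 reads. TAPBP, which was expressed far above TAP1, measured 224, 195, 311 and 268 in controls and 228, 212, 294 and 308 after hLcn-2. Samples 3 and 4 stood above samples 1 and 2 in both groups. The log2 fold change of TAPBP was 0.067 (standard error 0.18, interval with the block -0.097 to 0.23), with means of 249 ± 50.7 and 261 ± 47.7 (SD, n = 4).

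Some of the reads given to these genes could belong to neighbours on the other strand, because whether reads were counted by strand is not given in the sources used here. In GENCODE 44, all 577 bases of the last exon of TAP1 (chr6:32845209-32845785, minus strand) are overlapped by exons of the antisense RNA PSMB8-AS1. PSMB8-AS1 itself averaged 15.3 ± 1.44 and 14.0 ± 1.65 normalized counts. Of the last exon of TAPBP (chr6:33299694-33301771, minus strand), 1397 bases are overlapped by a long non-coding RNA, ENSG00000289100, that was not in the table.

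NLRC5, the transactivator of class I genes, was expressed at a low level and did not differ beyond the spread. It measured 22.8, 15.8, 22.03 and 23.0 normalized counts in controls and 23.4, 14.2, 23.2 and 16.1 after hLcn-2. Sample 2 was low in both groups, and sample 4 was low after hLcn-2 alone. The means were 20.9 ± 3.43 and 19.2 ± 4.77 (SD, n = 4), and the log2 fold change was -0.13 (standard error 0.21, interval with the block -0.43 to 0.17). It was up in 2 pairs and down in 2.

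CD274, the mRNA of PD-L1, was the least abundant of the 9 genes. Controls 1 to 4 measured 12.6, 14.0, 7.05 and 7.24 normalized counts, and hLcn-2 samples 1 to 4 measured 8.19, 10.1, 4.44 and 7.83. CD274 was lower after hLcn-2 in pairs 1 to 3 and higher in pair 4, and its groups overlapped. The means were 10.2 ± 3.58 and 7.65 ± 2.37 (SD, n = 4). The log2 fold change was -0.36 (standard error 0.29 without the block, 0.18 with it), and the interval with the block, -0.75 to 0.026, held 0 at its upper end. With the block, the adjusted p was 0.454 in limma and 0.219 by edgeR's quasi-likelihood test, which gave a log2 fold change of -0.47. DESeq2 with the block gave CD274 no adjusted p (unadjusted p = 0.0857).

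Few reads stood behind these values, from 9 in hLcn-2 sample 3 to 186 in control 2. The ratio of hLcn-2 to control was 0.650 in pair 1, with an exact 95% binomial interval of 0.50 to 0.840 from 179 and 92 reads. In pair 2 it was 0.727 (0.546 to 0.959). Pairs 3 and 4 were too shallow to show a difference of this size, with 0.630 (0.269 to 1.32) from 40 and 9 reads and 1.08 (0.538 to 2.35) from 11 and 36 reads. Beyond counting error, a difference in CD274 was thus detectable in pairs 1 and 2, where hLcn-2-treated cells were lower, and not in pairs 3 and 4.

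CMTM6, the protein partner that keeps PD-L1 from degradation, showed the largest difference of the 9 genes. It measured 26.7, 40.0, 36.1 and 16.5 normalized counts in controls and 72.9, 60.0, 45.9 and 38.5 after hLcn-2. The groups overlapped by control 2, which lay above hLcn-2 sample 4 (40.0 against 38.5), and by no other values. The means were 29.8 ± 10.5 and 54.3 ± 15.3 (SD, n = 4), and CMTM6 was higher after hLcn-2 in 4 of 4 pairs. The log2 fold change was 0.88, with a standard error of 0.27 and a 95% confidence interval of 0.28 to 1.47 in limma without the block, where the adjusted p was 0.9999 and the unadjusted p-value ranked 26th of all genes. With the block CMTM6 rose 1.84-fold (95% confidence interval 1.45 to 2.32, limma, adjusted p = 0.0419). By edgeR's quasi-likelihood test with the block it was 0.91 on the log2 scale (adjusted p = 0.00450), and DESeq2 with the block an adjusted p of 0.000322. The exact permutation test over samples, which does not use the pairs, gave p = 0.0571.

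The call of CMTM6 in limma was lost in several other settings, the direction in none. With any 1 pair left out, its log2 fold change with the block lay between 0.70 and 1.06 and its adjusted p between 0.0779 and 0.119. The call with the block was also lost in limma without the intensity trend (adjusted p = 0.443), with a pseudocount of 0.1 (0.0812), with scaling by column totals (0.0546) and with all libraries thinned to the depth of the shallowest (0.178), while the log2 fold change stayed between 0.79 and 0.90 under these settings. The rise was 2.73-fold in pair 1 (exact 95% binomial interval 2.42 to 3.09, from 379 and 819 reads) and 1.501-fold in pair 2 (1.32 to 1.71, from 533 and 426 reads). In pair 3 the ratio was 1.27, and its interval of 0.984 to 1.63 held 1. Pair 4 gave 2.34 (1.53 to 3.71), with 25 reads in the control, which is the shallowest library.

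**Figure D2:**
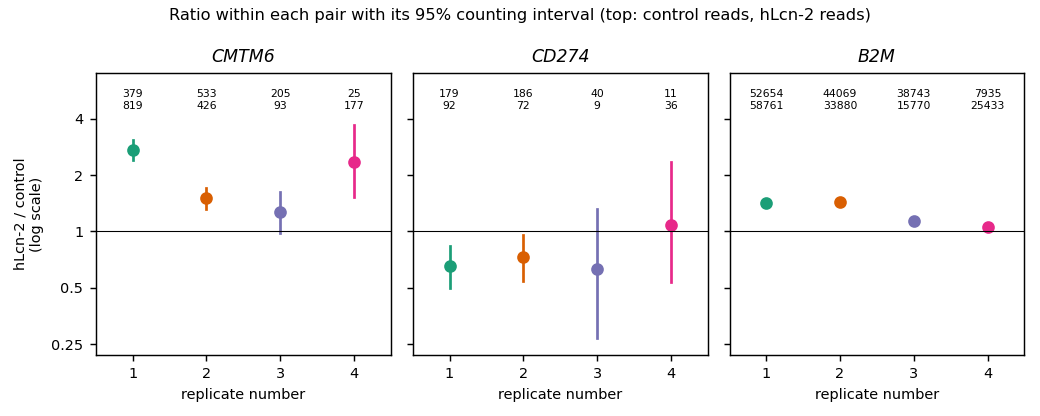
Ratio of hLcn-2 to control in each of the 4 same-numbered pairs (log axis), with exact 95% binomial intervals, which cover counting error only, for CMTM6, CD274 and B2M. The reads of the control and, under them, of the hLcn-2 sample stand above each point. CMTM6 lies above 1 in all pairs, from 1.27 to 2.73, CD274 lies below 1 in pairs 1 to 3 with wide intervals, and B2M lies between 1.06 and 1.44 with intervals smaller than the points.

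CMTM6 has a neighbour of its own family on the other strand. Tags of the 3′ end come mostly from the last exon, which for CMTM6 lies at chr3:32481312-32484097 (minus strand), and 324 of its bases are overlapped by exons of CMTM7. CMTM7 measured 10.2 ± 2.14 and 10.2 ± 1.44 normalized counts (SD, n = 4), and its log2 fold change was 0.019 (standard error 0.22). CMTM7 was counted at a lower level than CMTM6, and its means in both groups differed by less than the spread. Whether reads in the overlap were counted for the other gene was not tested.

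**Figure D3:**
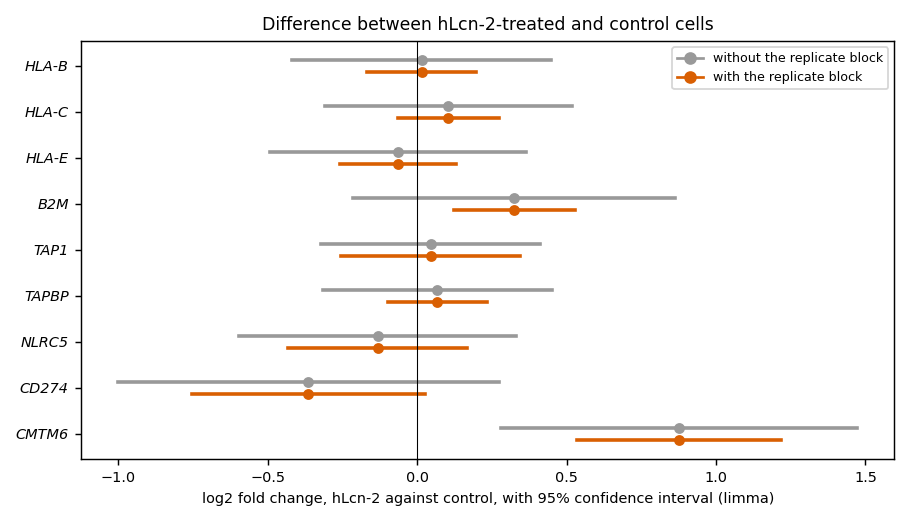
Log2 fold change of hLcn-2 against control for the 9 genes with 95% confidence intervals from limma, without (grey) and with (orange) the sample number as a block. The intervals of CMTM6 lie above 0 in both fits, that of B2M with the block alone, and those of the other 7 genes hold 0 in both.

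The order of the levels was the same in all samples for most of the genes. From the highest to the lowest mean over 8 samples, it was B2M (5299 normalized counts), HLA-B (2490), HLA-C (320), TAPBP (255), HLA-E (143), CMTM6 (42.1), TAP1 (32.5), NLRC5 (20.1) and CD274 (8.93). Each gene was above the next in 8 of 8 samples, apart from HLA-C, which was above TAPBP in 5 of 8, and CMTM6, which was above TAP1 in 6 of 8. Those 6 samples were all 4 of the hLcn-2 samples and 2 of the controls. Neighbours HLA-C and TAPBP, and CMTM6 and TAP1, overlap in their ranges, and so do TAPBP and HLA-E.

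Ratios between the genes within a sample do not depend on how libraries were scaled. The log2 differences and tests below were computed after adding 1 to each value, so that they depend on it in part. The ratio of CD274 to CMTM6 was 0.472, 0.349, 0.195 and 0.440 in controls and 0.112, 0.169, 0.0968 and 0.203 after hLcn-2. It was lower in 4 of 4 pairs, by -1.24 on the log2 scale, and control 3 was the only control inside the range of the hLcn-2 samples (exact two-sided permutation test, p = 0.0571, 0.143 after Benjamini-Hochberg adjustment over 5 ratios). With pseudocounts of 0.1 and 5 this difference was -1.30 and -1.05. The ratio of HLA-B to B2M was 0.540 ± 0.0977 in controls and 0.431 ± 0.0341 after hLcn-2 (SD, n = 4). It was also lower in 4 of 4 pairs, by -0.31 on the log2 scale (exact two-sided permutation test, p = 0.0857, adjusted 0.143). HLA-E to B2M was lower in 3 of 4 pairs, by -0.39 (exact permutation test, p = 0.0571, adjusted 0.143). HLA-C to B2M differed by -0.22 and was lower in 2 of 4 pairs, and TAP1 to TAPBP differed by -0.022. After adjustment, 0 of 5 ratios passed in this test, which does not use the pairs. Within pairs 1 to 4 the ratio of HLA-B to B2M differed by -0.55, -0.28, -0.14 and -0.27 on the log2 scale, all in the same direction, for which the exact sign-flip test gave its smallest possible value, p = 0.125. The ratios of the heavy chains share B2M and are not separate results. Taken singly, the log2 fold change was 0.015 for HLA-B and 0.32 for B2M. It was -0.36 for CD274 and 0.88 for CMTM6.

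Most of the variation of these genes lay between sample numbers, not between treatments. Of the sum of squares of log2(normalized count + 1) over the 8 samples, the number took 90.9% in HLA-B, 91.0% in HLA-C, 89.1% in HLA-E and 93.6% in TAPBP. The treatment took 0.076%, 3.53%, 1.31% and 1.89% in these 4 genes. B2M and CD274 had 17.9% and 17.6% with the treatment and 75.8% and 72.5% with the number. CMTM6 was the only one of the 9 genes with its largest share, 52.4%, in the treatment, beside 34.6% in the number. TAP1 differed from the other 8 genes, with 17.9% in the number and 80.5% in neither. Over all genes tested the median shares were 6.15% for the treatment and 66.6% for the number. The number has more levels than the treatment, so that it takes a larger share on average even without any effect.

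**Figure D4:**
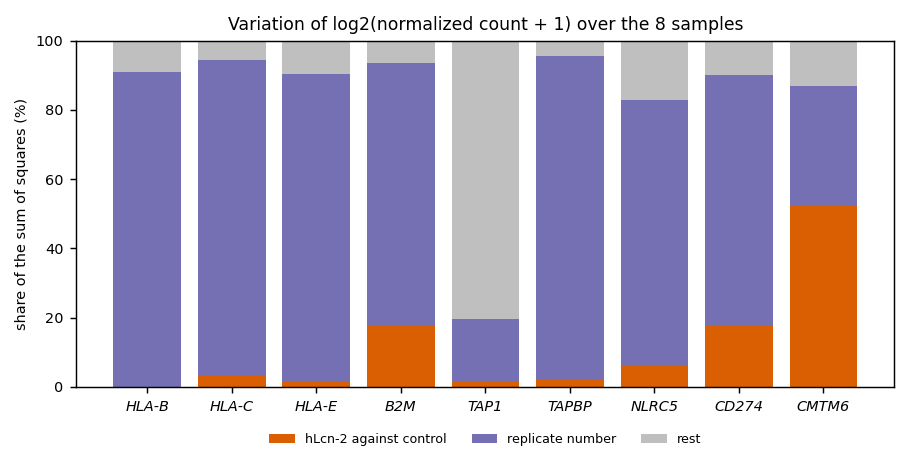
Share of the sum of squares of log2(normalized count + 1) over 8 samples (vertical axis, %) that goes with hLcn-2 against control (orange), with the sample number (purple) and with neither (grey), for each of the 9 genes. The treatment takes 52.4% in CMTM6 and at most 17.9% in the others, and the number takes between 72.5% and 93.6% in the 7 genes other than CMTM6 and TAP1.

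Which number was high differed between the genes. Over the 8 samples, Pearson's r of log2 levels was 0.86 between HLA-B and TAPBP and 0.83 between B2M and TAPBP, and these 3 genes were high in samples 3 and 4 of both groups. HLA-B and HLA-C, which both lie on chromosome 6 and share the TGACG half-site and CCAAT boxes in their promoter windows, had an r of -0.093. CD274 and B2M ran in opposite ways, with an r of -0.96. These values describe 8 libraries in 4 pairs and carry no test. All genes of a library share its depth and its sample number. Depth differed within pairs, as in pair 4 with 1501563 reads in the control and 4619920 in the hLcn-2 sample. The genes with the pattern most like that of HLA-B among 9006 genes with a mean of at least 10 normalized counts were IFITM2 (r = 0.97), HEXIM1, ALPK2, GRAMD2B and CCDC8. For CMTM6 they were IMPDH2 (r = 0.98), PIM1, a single row named for GABPB1 and GABPB1-IT1, PTPRJ and NUDT21.

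Genes around the 9 were read from lists by role, 88 genes of which 73 were tested. Of these 73 genes, 49 were above and 24 below 0, with a median log2 fold change of 0.063, beside 0.00083 over all genes tested. None of them passed in limma with the block, in limma without it or by edgeR's quasi-likelihood test with it, where 0.282%, 0% and 1.49% of all genes did. An unadjusted p-value under 0.05 in limma with the block was found for 7 of them, and for 1900 of all genes tested. The other genes of class I presentation (9 tested) had log2 fold changes from -0.011 to 0.12, with CANX, a chaperone of new heavy chains, at 1290 ± 144 and 1360 ± 70.4 normalized counts (SD, n = 4). The subunits of the immunoproteasome and of PA28, which shape the peptides, lay between -0.064 and 0.12 (4 tested).

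Genes of interferon-γ signalling, which is the classical inducer of class I genes and PD-L1, had a median log2 fold change of 0.11, with 6 of 9 above 0. Of them, 4 were higher in 4 of 4 pairs, beside 9.93% of all genes tested. IFNGR1, the ligand-binding chain of the receptor, averaged 21.3 ± 5.97 and 28.2 ± 3.36 normalized counts (log2 fold change 0.42, standard error with the block 0.13, limma, adjusted p = 0.206). IRF1, a factor that binds ISRE elements, averaged 67.1 ± 12.1 and 82.1 ± 22.3 (0.26, standard error with the block 0.092, limma, adjusted p = 0.265). These 2 genes were singled out after their values were seen, as the ones of the list with an unadjusted p-value under 0.05.

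Among factors that bind class I promoters, 5 of 9 were above 0 (median 0.011), with RELA at 107 ± 26.1 and 98.9 ± 12.5 normalized counts. In the CMTM family, 4 of 5 genes tested were above 0 (median 0.093). CMTM4, which also protects PD-L1, averaged 31.5 ± 4.47 and 35.6 ± 14.3 (log2 fold change 0.11, standard error 0.23). CMTM6 passed in limma with the block and the 5 others did not, but a difference between CMTM6 and the others was not tested. Regulators of the PD-L1 protein were above 0 in 7 of 9 genes (median 0.072). SPOP, an adaptor for its ubiquitination, averaged 269 ± 19.6 and 282 ± 21.9 normalized counts. ZDHHC9, which attaches palmitate to PD-L1, averaged 158 ± 43.9 and 183 ± 31.1 (log2 fold change 0.24, limma with the block, adjusted p = 0.316). STT3A, a subunit of the oligosaccharyltransferase that glycosylates PD-L1, averaged 136 ± 8.13 and 155 ± 3.10 with no overlap between the groups (log2 fold change 0.20, limma with the block, adjusted p = 0.318).

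Of the other checkpoint ligands, 4 of 7 were below 0, with a median of -0.17. CD47, the signal against phagocytosis, was at 135 ± 26.0 and 137 ± 26.6 normalized counts, while NECTIN2, a ligand of TIGIT singled out after its values were seen, was at 28.0 ± 4.13 and 22.5 ± 2.46 and lower in 4 of 4 pairs (log2 fold change -0.30, limma with the block, adjusted p = 0.372). Class I-like molecules were above 0 in 4 of 5 genes (median 0.12), and ligands of the receptor NKG2D in 2 of 5 (median -0.071). MHC class II genes, which in most cell types other than antigen-presenting cells are low unless induced, were present in both groups. CD74, the invariant chain, averaged 183 ± 70.3 and 197 ± 96.7 normalized counts and HLA-DRB1 179 ± 60.5 and 166 ± 52.3. Of the 11 class II genes, 9 were above 0, with a median of 0.14 and 0 past the threshold.

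**Figure D5:**
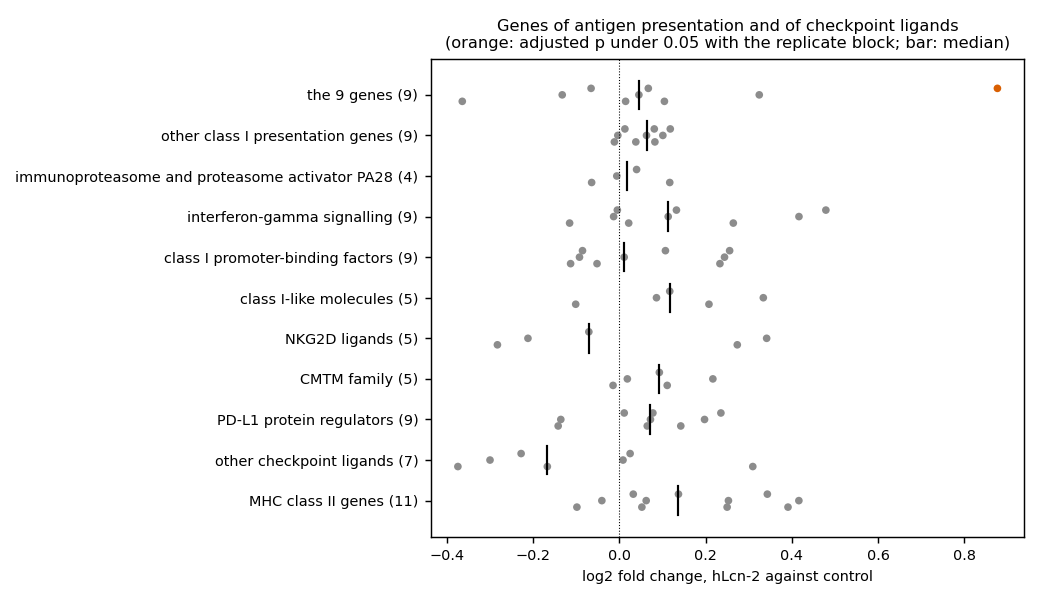
Log2 fold change of hLcn-2 against control (horizontal axis) for each gene tested, by list, with the number of genes tested in parentheses, the list's median as a bar and genes with an adjusted p-value under 0.05 in limma with the block in orange. CMTM6 is the only orange point, at 0.88, and the medians of the lists lie between -0.17 and 0.14.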

How the data were processed

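Per the labels and the methods of the study, the authors made single-end QuantSeq 3′ libraries with unique molecular identifiers from total RNA of CAKI1 cells, aligned the reads to GRCh38 with STAR, counted them per gene with HTSeq and normalized them with edgeR. The deposited table holds 1 signal per gene and sample, the normalized count, which is on the scale of CPM with the library size adjusted by a factor of 0.970 to 1.06. Multi-mapping and strand settings are not given in the sources used here. All 16782 genes in 8 columns gave whole reads (100% of values, tolerance 0.01) when divided by the worth of 1 read. A cell with a decimal comma (TXNIP) was read as a decimal point. Columns with no matching sample numbered 0.

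Log2(normalized count + 1) was tested, for genes that reached 1 CPM in 2 or more samples, with limma 3.58.1 (intensity trend, two-sided) in R 4.3.3, with Benjamini-Hochberg adjustment over the 15593 genes tested. A fold change on this scale understates the change of genes with few reads. The legend in the study gives fewer samples per group than were deposited, without saying which, so that all 8 were analysed. The study names no block, so the fit without it came first. The numbers in the titles pair each hLcn-2 sample with a control. Same-numbered samples correlated in their deviations across genes, each by more than 0.1 (mean 0.50), so that the fit with the number as a block is given beside it. edgeR 4.0.16 and DESeq2 1.42.0 were run on the recovered reads. Single values were tested by exact permutation over 70 regroupings of samples. The smallest p that sign flips over 4 pairs can give is 0.125. Exact binomial (Clopper-Pearson) 95% intervals cover counting error only, and unique molecular identifiers make each read stand for a molecule.

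Alternatives were other scalings (column totals, median of ratios, TMM), pseudocounts of 0.1 and 5, no filter or a mean of at least 10, no trend, an adjusted p-value under 0.1, libraries thinned to 1501563 reads and samples or pairs left out. The 9 genes and the other lists were chosen with earlier results of these data known. Some genes of the lists are not reported here by name. Named were the 9 genes and, from each other list, called genes or those with the highest means, and 5 genes most alike in pattern to HLA-B and CMTM6. Some markers and overlapping neighbours were also named. IFNGR1, IRF1 and NECTIN2 were named after their values were seen. PROCR (log2 fold change 0.33, limma with the block, adjusted p = 0.141) and HLA-DPA1 (0.39, 0.253) were not described, though both also had an unadjusted p-value under 0.05. The models were tested on simulated data. Gene models came from GENCODE 44, promoter windows from RefSeq (GRCh38.p14, 7 of the 9 genes matched by symbol).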

Additional observations from a re-analysis of the deposited data

Results flagged for a closer look

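In controls, NLRC5 of sample 2 lay far below the other 3 samples. It measured 15.8 normalized counts beside 22.8, 22.03 and 23.0, and its gap to the nearest sample was 0.860 of the range of the group, above Dixon's critical value for 4 samples. Of 18 groups of 4 examined, this was the only one, where chance gives 0.9. The hLcn-2 sample of the same number was also the lowest of its group, at 14.2. The NLRC5 value of control 2 rests on 211 reads.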

How the results depend on the processing

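The paired analysis decided the calls. Without the replicate block, 0 genes and 0 of the 9 genes passed in limma under each scaling, pseudocount, filter, trend setting and left-out sample, and in edgeR (324 at an unadjusted p-value under 0.05) and DESeq2 (284). With the replicate block, limma called 44 genes, and 8 with a pseudocount of 0.1, 85 with a mean of at least 10, 36, 43 and 67 with scaling by column totals, median of ratios and TMM, and 0 to 54 with a pair left out (13, 3, 0 and 54 without pairs 1, 2, 3 and 4). Without the trend it called 0 (1567 at an unadjusted p-value under 0.05), and in thinned libraries 0 (1483). The quasi-likelihood test of edgeR with it called 233 of 15593 genes. DESeq2 with it called 173 of the 9244 genes to which it gave an adjusted p. Among the 9 genes, limma with the block called 1 (CMTM6, 0.88), also with a mean of at least 10 (0.88), median of ratios (0.88) and TMM (0.89), as did DESeq2 (0.89). edgeR called 2, CMTM6 (0.91) and B2M (0.33). With a pair left out the number was 0 to 1, the call being B2M without pair 4 (limma with the block, adjusted p = 0.0499). CMTM6 was not called with the block at a pseudocount of 0.1 (adjusted p = 0.0812), without the trend (0.443), by column totals (0.0546) or thinned (0.178). The cause was not tested. Of the 9 genes, none other than CMTM6 and B2M was called in any setting with the block.

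HLA-B turned to -0.017 by column totals (with and without the block), -0.0024 in DESeq2 and -0.013 in thinned libraries. Without single samples, log2 fold changes lay between -0.16 and 0.11 for HLA-B, -0.034 and 0.26 for HLA-C, -0.25 and 0.048 for HLA-E, -0.065 and 0.12 for TAP1, -0.043 and 0.18 for TAPBP, 0.17 and 0.52 for B2M, 0.63 and 1.04 for CMTM6, -0.50 and -0.16 for CD274 and -0.25 and -0.0058 for NLRC5, so the first 5 have no stable sign. Without pairs and with the block they were -0.064 to 0.081 for HLA-B, -0.15 to 0.0093 for HLA-E, -0.12 to 0.15 for TAP1 and 0.26 to 0.41 for B2M. The log2 ratio of TAP1 to TAPBP lay between -0.14 and 0.050. The scalings moved the median of all genes to between -0.027 and 0.0095. Depth limits CD274, with as few as 9 reads.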
